A study of Homo sapiens with 10 samples.

Results

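The zinc finger clusters of chromosome 19 also hold noncoding genes, and 71 of them were followed here in ZNF274 knockout (KO) and wild-type (WT) cells. They were taken by position, biotype and symbol. GENCODE classes each as lncRNA, lincRNA or a pseudogene. Each starts on hg19 chromosome 19 in 1 of 4 windows over zinc finger clusters, and none carries a plain zinc finger gene symbol. These 71 are among 19665 genes listed for both cell types. They comprise 42 lncRNA genes and 1 lincRNA gene, together called lncRNA members, and 28 pseudogenes. The window called 19p12 held 19 members, which start from 19868175 to 24216203, 19q13.12 held 16 (36505395 to 38319690), 19q13.41 held 13 (52097814 to 53982604) and 19q13.43 held 23 (56088136 to 59084870). A further 27 such genes were listed for HEK293T cells only and 8 for NPCs only.

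Zinc finger genes that encode a Krüppel-associated box (KZFP genes) stand in tandem arrays, and lncRNA genes lie between and across them. Some start head to head with a zinc finger gene on the opposite strand, others overlap one, and others are intergenic. Symbols ending in DT (divergent transcript) or AS (antisense) name a neighbouring gene, and many intergenic ones carry LINC symbols. The symbol does not settle the arrangement. ZNF528-AS1 starts head to head with ZNF528 and shares no exon bases with it, and LINC00664 overlaps ZNF429 on the same strand. Pseudogenes are copies of coding genes, by duplication or by reverse transcription of an mRNA, that have lost the open reading frame. ZNF274 is itself a KZFP gene in the 19q13.43 array; its protein binds the 3' ends of zinc finger genes and recruits KAP1 (TRIM28) and SETDB1, which lay down H3K9me3, a histone mark of silent chromatin.

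RNA-seq counts were available for 3 WT and 3 ZNF274 KO libraries of HEK293T, a human embryonic kidney line that expresses SV40 large T antigen, and for 2 WT and 2 ZNF274 KO libraries of neural progenitor cells (NPCs) differentiated through embryoid bodies from the H1 embryonic stem cell line. KO lines came from CRISPR-Cas9 editing, HEK293T ones from sorted single cells, and the design text speaks of independent WT and KO clones; which clone a library came from is not in the labels, so the p-values measure the spread between these libraries, which may be partly technical. Libraries held 18621266 to 32285876 counts. The targeted gene checked the labels: ZNF274 had 445, 423 and 492 counts in HEK293T WT libraries S15, S16 and S17 and 491 and 496 in NPC WT libraries S3 and S5, and 0 in each of the KO libraries (S18, S19 and S20 in HEK293T, S1 and S2 in NPC). This is at least 137-fold lower in HEK293T and at least 172-fold lower in NPCs, with a floor of 3 counts per library. Of the embryonic kidney line markers, SALL1, EMX2 and EYA1 had 65 or more counts in each HEK293T WT library and PAX2 6 to 14. KO NPC cultures differed from WT in cell type markers. Of 10 neural progenitor genes, 8 fell in KO and 0 rose, although the summed level of the list was 2936 to 3946 CPM (counts scaled to the TMM-corrected library size) in WT and 3193 to 3257 in KO. SOX2, for example, went from 4794 and 4281 counts to 258 and 469, whereas NES had 47831 and 58533 counts in WT and 64447 and 68537 in KO. Of 10 mesenchymal genes, 5 rose and 0 fell, and their summed level went from 1329 to 2218 CPM in WT to 5273 to 6102 in KO. Of 6 pluripotent genes, 4 were analysed in NPCs, and their summed level went from 139 to 161 CPM in WT to 65.1 to 70.4 in KO; LIN28A fell from 1346 and 1654 counts to 23 and 41, and ZFP42 rose from 23 and 2 to 121 and 112. The part of these shifts in the NPC results given here was not tested.

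The starts of 6 members carry the comparisons described next, so their sequences are given first, as 300 bases of hg19 from 250 before the annotated start to 50 from it, read 5' to 3' on the member's own strand with CG dinucleotides in capitals. ZNF528-AS1 (chr19:52900995-52901294, minus strand) and ZNF582-DT (chr19:56904775-56905074, plus strand) are shown because their windows also hold the start of the zinc finger gene on the other strand, ZNF528 at base 193 and ZNF582 at base 133, with the member starting at base 251. ENSG00000267260 (chr19:37263752-37264051, plus strand) and ZNF667-AS1 (chr19:56988369-56988668, plus strand) are the head-to-head members called in both cell types. LINC00665 (chr19:36822623-36822922, minus strand) and LINC01224 (chr19:23598828-23599127, minus strand) are intergenic and were called in 1 cell type each.
ZNF528-AS1: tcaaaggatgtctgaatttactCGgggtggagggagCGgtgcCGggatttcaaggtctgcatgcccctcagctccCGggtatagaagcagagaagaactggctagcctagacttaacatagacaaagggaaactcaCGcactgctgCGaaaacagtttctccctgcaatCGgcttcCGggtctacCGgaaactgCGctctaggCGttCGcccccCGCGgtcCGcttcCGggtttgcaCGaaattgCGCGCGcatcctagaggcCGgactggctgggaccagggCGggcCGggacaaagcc
ZNF582-DT: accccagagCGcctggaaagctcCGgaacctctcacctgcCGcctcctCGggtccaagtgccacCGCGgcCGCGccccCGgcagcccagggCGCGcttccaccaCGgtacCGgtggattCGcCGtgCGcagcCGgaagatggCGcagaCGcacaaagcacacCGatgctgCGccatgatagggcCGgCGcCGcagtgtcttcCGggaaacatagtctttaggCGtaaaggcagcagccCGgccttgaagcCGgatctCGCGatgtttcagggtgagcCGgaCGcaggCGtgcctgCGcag
ENSG00000267260: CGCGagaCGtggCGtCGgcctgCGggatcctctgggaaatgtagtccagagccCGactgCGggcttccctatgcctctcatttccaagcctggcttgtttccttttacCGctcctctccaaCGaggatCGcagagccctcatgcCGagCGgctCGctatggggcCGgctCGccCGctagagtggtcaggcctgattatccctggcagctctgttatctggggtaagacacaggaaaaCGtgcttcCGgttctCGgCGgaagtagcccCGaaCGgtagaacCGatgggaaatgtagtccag
ZNF667-AS1: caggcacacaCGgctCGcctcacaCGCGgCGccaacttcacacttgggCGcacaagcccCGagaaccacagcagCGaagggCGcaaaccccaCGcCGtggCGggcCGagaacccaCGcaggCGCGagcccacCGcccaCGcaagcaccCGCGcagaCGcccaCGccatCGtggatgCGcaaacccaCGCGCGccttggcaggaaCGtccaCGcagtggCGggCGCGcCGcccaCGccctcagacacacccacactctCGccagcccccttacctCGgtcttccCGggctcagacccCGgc
LINC00665: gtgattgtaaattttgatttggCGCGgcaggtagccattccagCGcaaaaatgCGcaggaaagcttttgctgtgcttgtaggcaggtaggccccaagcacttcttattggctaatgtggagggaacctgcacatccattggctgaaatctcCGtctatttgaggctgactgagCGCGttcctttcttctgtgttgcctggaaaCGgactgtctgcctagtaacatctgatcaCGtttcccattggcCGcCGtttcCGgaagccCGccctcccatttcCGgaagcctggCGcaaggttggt
LINC01224: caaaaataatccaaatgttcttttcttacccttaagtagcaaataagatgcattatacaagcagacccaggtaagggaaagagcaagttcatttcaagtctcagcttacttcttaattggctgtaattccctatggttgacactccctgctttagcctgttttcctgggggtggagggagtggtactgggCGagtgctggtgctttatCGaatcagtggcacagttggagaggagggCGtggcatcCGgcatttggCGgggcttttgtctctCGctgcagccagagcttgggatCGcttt
The windows held 23, 34, 24, 38, 15 and 7 CG dinucleotides in the order printed, against a median of 9 over 38864 coding and lncRNA gene starts of the annotation. The median was 17 over the 43 lncRNA members, 25.5 over the 12 head-to-head members and 6.5 over the 28 pseudogenes. Searched on both strands, the GC box letters GGGCGG stood in 26 of 43 lncRNA member windows (60.5%) and 6 of 28 pseudogene windows (21.4%), against 37.9% of all starts. CCAAT stood in 20 lncRNA member windows (46.5%) and in 35.6% of all starts, with 3 matches in the LINC00665 window, TATAAA in 4 (9.30%) and 13.3%, and the CRE letters TGACGTCA in 1 (2.33%) and 1.61%. Matches were counted for each motif by itself, so that 2 motifs may share bases, and a match describes the letters only.

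In WT cells most members were low. The median level over the 71 was 0.158 CPM in HEK293T WT and 0.648 CPM in NPC WT (CPM after TMM scaling, each cell type scaled on its own), and 18 and 29 members reached 1 CPM. In HEK293T KO the median was 0.487 CPM and 25 members reached 1 CPM, and in NPC KO 0.684 CPM and 32 members. Summed over all members, the level was 81.9 to 94.2 CPM in HEK293T WT libraries and 134 to 154 CPM in KO libraries, with no overlap, and 187 to 194 CPM in NPC WT and 188 to 202 CPM in NPC KO, with overlap. Without CENPBD2P, the member with the highest level in WT (left out after seeing the data), the NPC sum was 139 and 146 CPM in WT and 163 and 174 CPM in KO, with no overlap. Such sums rest mostly on a few members and do not describe the rest. In HEK293T, LINC00665 went from 3.92 to 27.6 CPM and ENSG00000267260 from 2.65 to 17.5 CPM. In NPCs, ENSG00000267260 went from 1.88 to 11.0 CPM and ZNF667-AS1 rose too, while LINC01224 went from 25.1 to 9.37 CPM. The highest members in HEK293T WT were CENPBD2P, ENSG00000268205, TPM3P9, A1BG-AS1 and IPO5P1, at 17.6 ± 2.08, 7.28 ± 0.113, 6.56 ± 0.391, 6.37 ± 0.330 and 5.95 ± 0.709 CPM (SD, n = 3). Per kilobase of exon, their order was TPM3P9 (2.25 CPM per kb), IPO5P1 (2.06), A1BG-AS1 (1.89), CENPBD2P (1.81) and ENSG00000268205 (1.71). In NPC WT the highest were CENPBD2P at 47.4 ± 0.0576, LINC01224 at 25.1 ± 0.134, ZNF667-AS1 at 16.2 ± 0.877, IPO5P1 at 14.9 ± 5.06 and LINC00665 at 11.3 ± 0.587 CPM (SD, n = 2). TPM3P9 and IPO5P1 are pseudogenes of a tropomyosin and of an importin, whose coding parents have similar sequence, and since the authors counted only uniquely mapped reads, sequence shared between copies is under-counted.

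In HEK293T cells, loss of ZNF274 up-regulated 7 members and down-regulated 0, all 7 of them lncRNA genes. Calls required a fold change above 2 and an adjusted p below 0.05 (edgeR quasi-likelihood test, Benjamini-Hochberg over all genes). Of the 71 members, 59 passed the count filter (total of at least 1 count per library) and were tested, and 12 did not, 9 of them with 0 counts in all 6 libraries. The share called up was 11.9% of tested members against 0.478% of all 19018 genes tested, and for genes called down 0% against 0.0105%. At an unadjusted p below 0.05, 19 members were higher and 1 was lower in KO; DESeq2 and voom also called 0 lower. Of the 59, 43 had a log2 fold change (FC) above 0. The median log2 FC was 0.45, and 0.33 with the 4 members that lack counts in 1 group set to their bound, against 0.01 over all genes listed for both cell types. Of these genes, 17608 were tested in HEK293T, and 8943 of them had a log2 FC above 0. At an unadjusted p below 0.05, 742 of the 17608 were higher and 486 lower in KO.

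ENSG00000267260, a lncRNA that starts 275 bp from ZNF850 on the other strand (the printed chr19:37263752-37264051 start), had 91, 71 and 73 counts in WT and 473, 429 and 500 in KO. The lowest KO library stood far above the highest WT one, and the mean level went from 2.65 ± 0.335 to 17.5 ± 3.88 CPM (SD, n = 3; log2 FC 2.72 ± 0.24 SE, edgeR adjusted p = 0.000328). LINC00665, an intergenic lncRNA whose nearest zinc finger gene start is that of ZFP14, 47431 bp away, had 169, 62 and 118 counts in WT and 613, 860 and 795 in KO. Its groups did not overlap either, with 3.92 ± 1.75 CPM in WT and 27.6 ± 1.81 CPM in KO (log2 FC 2.81 ± 0.30 SE, edgeR adjusted p = 0.000978). Among the members called in HEK293T, LINC00665 reached the highest level in KO. ZFP14 itself had 48 to 71 counts in WT and 64 to 89 in KO (log2 FC 0.56 ± 0.29 SE, edgeR adjusted p = 0.743). The 3' end of ZFP14 is much nearer to LINC00665 than its start. ZFP14 spans 36825355 to 36870103 on the minus strand, and LINC00665 starts at 36822672 on that strand.

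ZNF667-AS1, a lncRNA also called MORT that is silenced in many tumours, was close to silent in WT, with 4, 0 and 0 counts, and had 155, 246 and 134 counts in KO (log2 FC 7.03 ± 0.66 SE, edgeR adjusted p = 0.000399). All 4 WT counts came from library S15. Its head-to-head partner ZNF667, a KZFP gene, had 0, 0 and 0 counts in WT and 49, 114 and 141 in KO, at least 35.8-fold higher. ZNF528-AS1 was silent in WT at this depth, with 0 counts in each library, and had 27, 10 and 24 counts in KO, at least 7.81-fold higher (edgeR adjusted p = 0.0347). This call is the least firm of the 7. Its adjusted p was 0.118, 0.171 and 0.0964 without WT libraries S15, S16 and S17, 0.0701 and 0.0833 without KO libraries S18 and S20, and 0.0669 with voom. The zinc finger gene ZNF528, which starts 58 bp away in the window printed above, went from 2, 3 and 6 counts to 166, 260 and 211 (log2 FC 5.91 ± 0.39 SE, edgeR adjusted p = 4.24e-05). ZNF582-DT had 10, 8 and 11 counts in WT and 163, 105 and 63 in KO (log2 FC 3.67 ± 0.48 SE, edgeR adjusted p = 0.00461; 0.0802 without WT library S16). Its partner ZNF582, whose start lies 118 bp away, had 78, 107 and 119 counts in WT and 355, 339 and 217 in KO, a log2 FC of 1.72 ± 0.29 SE. ZNF582-DT also shares 190 bases of exon with ZNF583 on the same strand, and strand would not separate reads over them. ZNF583 had 106, 110 and 128 counts in WT and 413, 513 and 280 in KO (log2 FC 1.92 ± 0.25 SE, edgeR adjusted p = 0.00439).

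The other 2 called members overlap a zinc finger gene on the opposite strand. ENSG00000176593 overlaps ZNF606 only where both genes start, with starts 1288 bp apart and 954 bases of exon shared between the strands. This distance is past the limit for head to head given below. ENSG00000176593 had 15, 12 and 5 counts in WT and 120, 117 and 91 in KO (log2 FC 3.48 ± 0.42 SE, edgeR adjusted p = 0.00262). ZNF606 rose too, from 85, 140 and 103 counts to 903, 666 and 386 (log2 FC 2.73 ± 0.36 SE). ZNF790-AS1 had 10, 4 and 8 counts in WT and 138, 82 and 75 in KO (log2 FC 3.90 ± 0.49 SE, edgeR adjusted p = 0.00362; 0.0542 without WT library S16). Here the zinc finger gene on the other strand was not called: ZNF790 had 130, 148 and 144 counts in WT and 151, 210 and 158 in KO (log2 FC 0.40 ± 0.22 SE, edgeR adjusted p = 0.763). The 2 genes share 60 bases of exon. Whether the counting used strand is not given in the sources used here, so that reads from a member and from a coding gene on the other strand cannot be told apart over shared bases; 33 of the 71 members have exon bases in common with a coding gene, and ENSG00000267260, LINC00665 and ZNF528-AS1 have none.

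**Figure D1:**
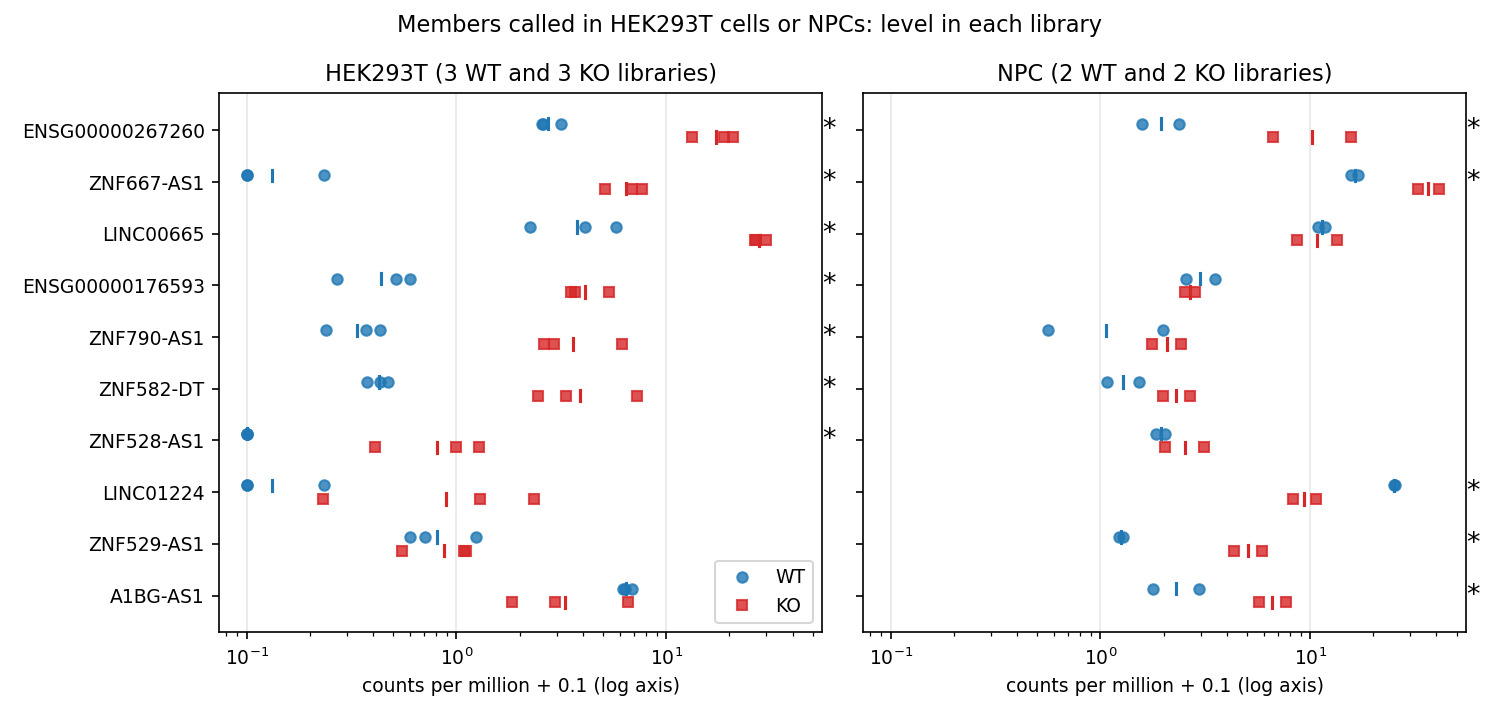
CPM plus 0.1 (log axis) of the 10 members called in either cell type, with 1 point per library (WT circles, KO squares), the mean of the log values as a bar and an asterisk at the right edge where the member was called in that cell type. In HEK293T the KO points of the upper 7 members lie to the right of all WT points, whereas in NPCs only ENSG00000267260 and ZNF667-AS1 among these 7 are called.

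Members were grouped by position into 1 class each, with head to head taken first. Of 12 head-to-head members tested in HEK293T, 4 were up-regulated. Among the rest, so were 2 of 12 that overlap a zinc finger gene on the opposite strand and 1 of 22 with no such neighbour. Of 13 that overlap one on the same strand, 0 were up-regulated (3 higher and 0 lower at an unadjusted p below 0.05, 1 called by DESeq2 and 0 by voom). A start distance of at most 1000 bp between strands counted as head to head, and all 12 such members are lncRNA genes. Some of them also overlap a zinc finger gene, as do the called ZNF582-DT (ZNF583, same strand) and ZNF667-AS1 (ZNF667, opposite strand). The median log2 FC was 2.25 for head-to-head members, 0.20 for opposite-strand, 0.31 for same-strand and 0.31 for the remaining ones. The zinc finger gene was called up in 7 of the 12 head-to-head pairs. Of these 7 pairs, 4 had a called member and all 7 a member with a log2 FC above 0. Among the other 5 pairs (ZNF8 and ZNF132 were not tested) 0 members were called and 4 had a log2 FC above 0; 3 of these 5 pairs (those of ZNF8-DT, ZNF497-AS1 and ZNF132-DT) lie beyond ZNF274. With S20 as the only KO library, the log2 FC of these 3 members was 0.36, 1.09 and 0.65, and none was called. The 3 members that were not called beside a called partner were at few counts. ZNF793-AS1 had 2, 0 and 0 counts in WT and 17, 17 and 12 in KO, a ratio of 24.8 with an exact 95% counting interval of 6.48 to 211 (edgeR adjusted p = 0.0891, 0.0241 with all 10 libraries in 1 fit and 0.0337 with DESeq2), beside ZNF793 at a log2 FC of 3.69. ZFP28-DT and ZNF470-DT had 2 to 5 and 5 to 12 counts in KO and log2 FC of 1.85 and 2.64, beside 2.71 for ZFP28 and 1.62 for ZNF470.

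**Figure D2:**
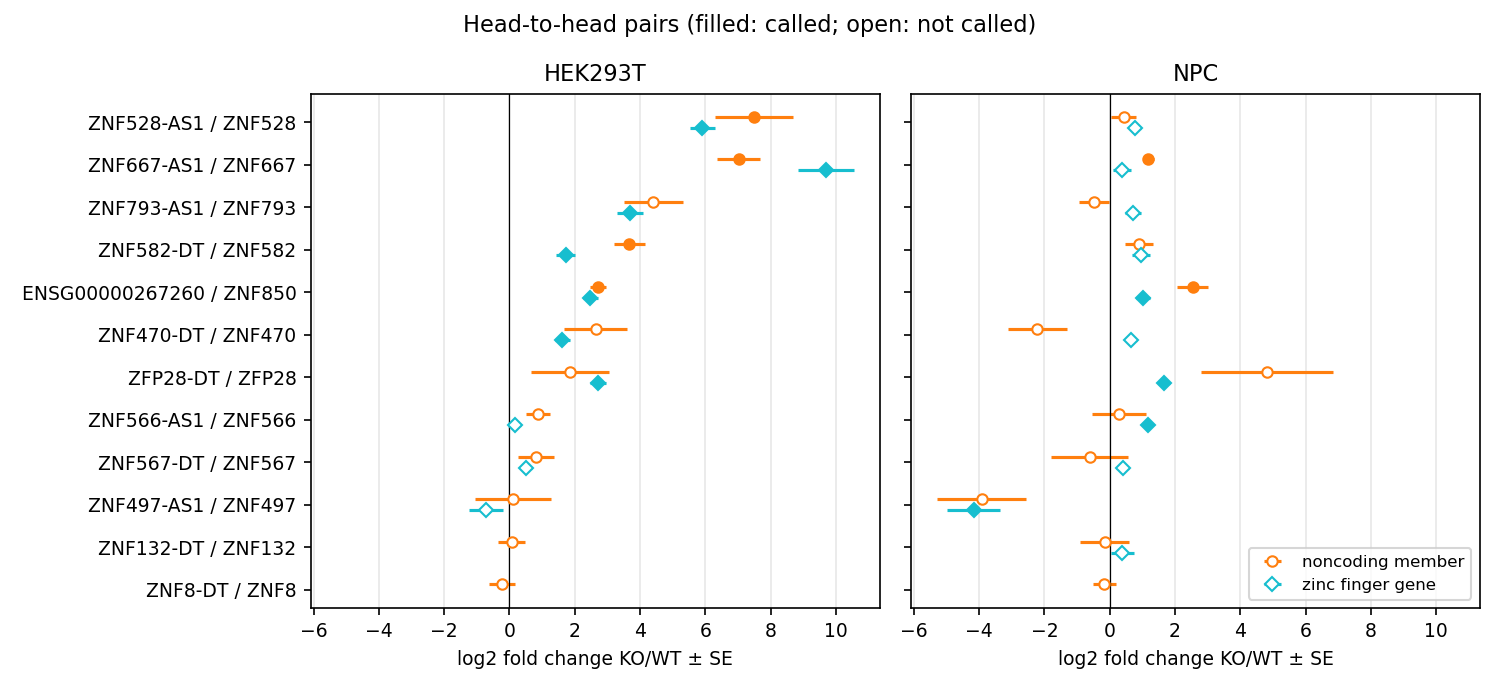
log2 FC between KO and WT with its standard error for the 12 head-to-head members (circles) and their zinc finger partners (diamonds), filled where called. In HEK293T the upper 7 pairs have both points to the right of 0, from 1.62 for ZNF470 to 9.70 for ZNF667 (fitted values of genes with 0 counts in WT, such as ZNF667, depend on the prior count); in NPCs the members lie between -3.91 and 4.82.

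A start next to an up-regulated zinc finger gene did not always go with a higher level of the member. ENSG00000267886 starts 9 bp from ZNF730 on the same strand. It shares 178 of its 967 exon bases with ZNF730, and reads over these bases cannot be assigned to 1 gene. It had 0, 0 and 0 counts in WT and 0, 0 and 1 in KO, while ZNF730 went from 0 in each WT library to 36, 63 and 48 counts, at least 17.4-fold higher. Farther off, LINC00664 and ENSG00000268119, with starts 13308 and 32774 bp from that of ZNF429, had 0 counts in all 6 libraries, while ZNF429 had 92, 56 and 74 counts in WT and 168, 313 and 205 in KO (log2 FC 1.71 ± 0.26 SE). All 3 lncRNAs were detected in NPCs, at 2.97, 1.74 and 10.6 CPM in WT. At the depth of the HEK293T libraries, 3 counts correspond to 0.0921 to 0.131 CPM. In the 19p12 window as a whole 0 of 14 tested members were called (6 higher and 0 lower at an unadjusted p below 0.05; DESeq2 called 2 and voom 0), against 3 of 14 in 19q13.12, 1 of 11 in 19q13.41 and 3 of 20 in 19q13.43. The median log2 FC in these windows was 0.47, 0.98, 0.69 and 0.14, or 0.30, 0.84, 0.69 and 0.14 with members that lack counts in 1 group at their bound. In 19p12, ENSG00000267383, which runs antisense through ZNF486 and over the 3' end of ZNF90, had 0, 1 and 1 counts in WT and 13, 17 and 9 in KO. This is a ratio of 21.0 with an exact 95% counting interval of 5.44 to 179, just outside the call (edgeR adjusted p = 0.0794), and past it with filterByExpr (0.0434) and with all 10 libraries in 1 fit (0.0329). ZNF90 had 0, 0 and 0 counts in WT and 257 to 335 in KO, and ZNF486 had 1, 0 and 2 in WT and 174 to 315 in KO. Reads over the 1103 bases of exon that they share with the member cannot be told apart. LINC01224 varied among the KO libraries, with 4, 0 and 0 counts in WT and 3, 39 and 60 in KO (log2 FC 4.61 ± 1.13 SE, edgeR adjusted p = 0.192; 0.0149 without KO library S18 and 0.00603 with DESeq2).

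None of the 24 pseudogenes tested in HEK293T was called (edgeR), with 3 higher and 1 lower at an unadjusted p below 0.05; voom called 0 and DESeq2 called 2 higher, WDR87BP and ENSG00000213976. WDR87BP came nearest, with 0, 0 and 0 counts in WT and 17, 8 and 13 in KO, at least 4.83-fold higher (edgeR adjusted p = 0.0697). In NPCs it had 0 and 0 counts in WT and 6 and 8 in KO (edgeR adjusted p = 0.0566). ENSG00000213976, which shares 1763 of its 1764 exon bases with ZNF738, had 23, 25 and 23 counts in WT and 41, 116 and 53 in KO (log2 FC 1.61 ± 0.37 SE, edgeR adjusted p = 0.154, DESeq2 0.0178). ZNF738 had 193, 137 and 172 counts in WT and 81, 231 and 138 in KO (log2 FC -0.10 ± 0.29 SE, edgeR adjusted p = 0.960). IPO5P1 had 190, 149 and 188 counts in WT and 228, 319 and 231 in KO (log2 FC 0.67 ± 0.21 SE, edgeR adjusted p = 0.468). TPM3P9 had 185 to 207 and 124 to 304 counts, with overlapping groups. The median log2 FC was 0.27 over the pseudogenes and 0.87 over the 35 lncRNA members tested, or 0.44 for the latter with 3 members at their bound.

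The KO libraries of HEK293T were not alike over the members between ZNF274 and the end of 19q. Of these 12 members, 6 had a mean of at least 30 counts, and relative to the lowest WT library 4 of the 6 were lower in S18, 6 in S19 and 0 in S20. CENPBD2P, a pseudogene of a CENPB DNA-binding domain gene, had 572, 442 and 544 counts in WT and 180, 243 and 470 in KO. A1BG-AS1 had 202, 178 and 184 counts in WT and 40, 93 and 173 in KO, and ZNF584-DT 205, 164 and 142 against 57, 93 and 200. The summed level of the 12 members was 33.2 to 41.3 CPM in WT, 17.4 CPM in S18, 16.8 CPM in S19 and 40.4 CPM in S20. Over all 20 genes of the interval with a mean of at least 30 counts, the median log2 ratio to the WT mean (log2 of CPM plus 0.1) was -1.17 in S18, -1.24 in S19 and 0.07 in S20, and 20, 19 and 6 of the 20 genes were below 0. ZNF544, the coding zinc finger gene of the interval nearest to ZNF274, had 214, 66 and 159 counts in WT, 0 in S18, 875 in S19 and 569 in S20, so that it was far below WT in S18 and above WT in the other 2 KO libraries. For the 13 such genes in the 0.5 Mb before ZNF274 it was 1.28, 1.01 and 0.27. In NPCs the summed level of the 12 members was 60.9 and 58.3 CPM in WT and 43.6 and 44.8 CPM in KO, with no overlap. CENPBD2P carried this difference, since without it the other 11 members summed to 13.40 and 10.90 CPM in WT and 18.08 and 16.62 CPM in KO, the opposite direction. In HEK293T their sum was 17.96 to 22.23 CPM in WT and 9.52, 9.30 and 22.80 CPM in S18, S19 and S20. Over 19 genes of the interval the NPC medians were -0.21 in S1 and -0.04 in S2, with genes on both sides of 0, such as A1BG-AS1 at 1.74 and 1.31 and the coding gene MZF1 at -1.49 and -1.54. With S20 as the only KO library, the 6 members had log2 FC of -0.15 to 0.65, against -0.83 to 0.07 with all 3. Without the 12 members, 50 were tested, 7 were up-regulated, 40 had a log2 FC above 0 and the median was 0.75. With S20 alone as KO, 3 members stayed past the thresholds (all KO spread then being borrowed from WT), namely ENSG00000267260, ZNF667-AS1 and LINC00665, and the log2 FC of the called members other than ZNF528-AS1 was 2.82 to 6.67. TRIM28, which encodes KAP1, lies in this interval. Its log2 ratio to the WT mean was -1.59 in S18, -1.41 in S19 and -0.15 in S20, and -0.68 and -0.55 in NPC KO libraries S1 and S2. Why S18 and S19 are low in the interval, and the part of TRIM28 in the results given here, were not tested.

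**Figure D3:**
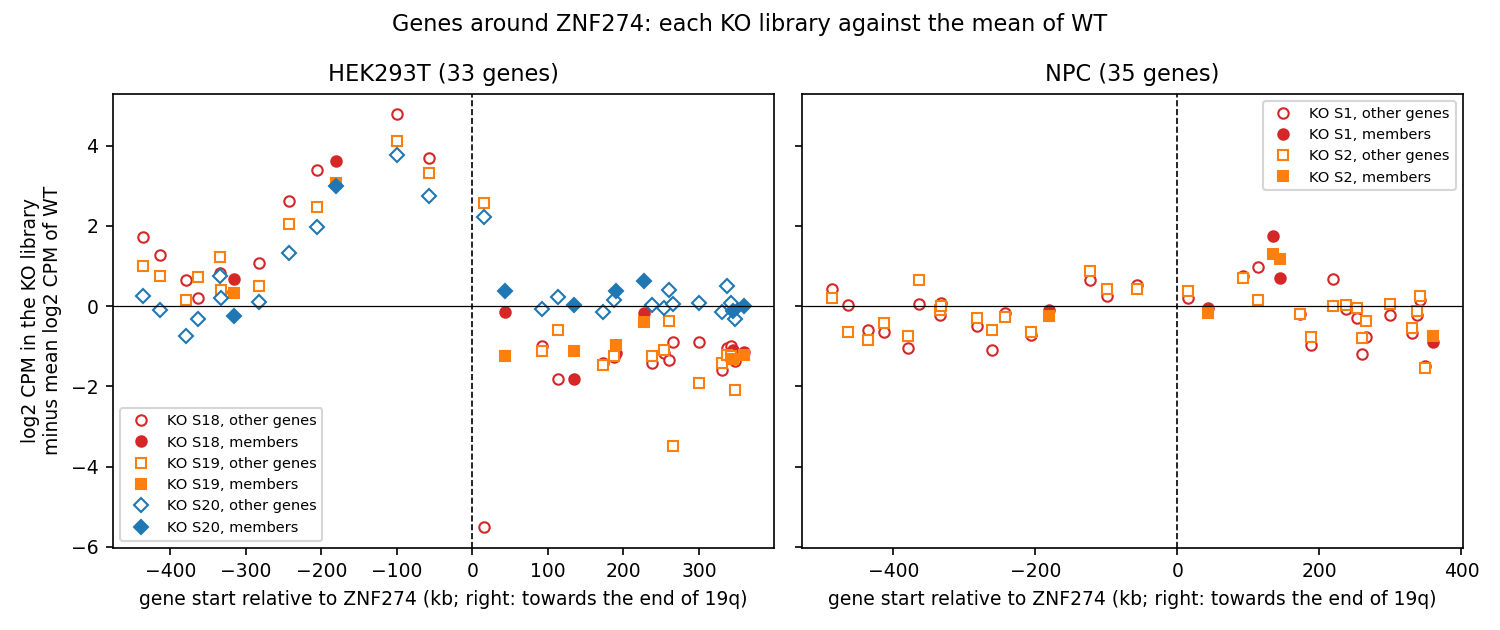
log2 CPM (plus 0.1) of each KO library minus the WT mean for genes with a mean of at least 30 counts, by the distance of their start from ZNF274 (kb; before its start on the left, beyond its end on the right, towards the end of 19q), with members filled. On the right of the HEK293T panel the medians are -1.17 for S18, -1.24 for S19 and 0.07 for S20, with single genes far from them, such as ZNF544 at -5.51, 2.57 and 2.23; the NPC panel has medians of -0.21 and -0.04 there.

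In NPCs, 4 of the 71 members were up-regulated in KO (5.63%, against 8.45% of all 20577 genes tested) and 1 was down-regulated (1.41%, against 8.36%), and these shares are near or below those of all genes. All 71 passed the filter, 40 had a log2 FC above 0, and the median log2 FC was 0.29 (0.23 with 4 members at their bound) against -0.03 over all genes listed for both cell types. At an unadjusted p below 0.05, 10 were higher and 6 lower. Of 19468 tested genes listed for both cell types, 4066 were higher and 3925 lower at that p, and 9422 had a log2 FC above 0. All 5 called members are lncRNA genes; of the 28 pseudogenes 0 were called (edgeR), with 4 higher and 2 lower at an unadjusted p below 0.05; DESeq2 called 0 and voom 1, WDR87BP.

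ENSG00000267260 rose in NPCs as well, from 48 and 29 counts to 132 and 344 (1.88 ± 0.557 to 11.0 ± 6.35 CPM, SD, n = 2; log2 FC 2.55 ± 0.47 SE, edgeR adjusted p = 0.00744). The lower KO library S1 was above both WT libraries, and S2 was higher still; without S2 the adjusted p was 0.0552. Its partner ZNF850 had 152 and 141 counts in WT and 285 and 338 in KO (log2 FC 1.02 ± 0.20 SE). ZNF667-AS1, which was already at 356 and 305 counts in NPC WT, had 829 and 723 in KO (log2 FC 1.18 ± 0.17 SE, edgeR adjusted p = 0.00286), while ZNF667 had 183 and 126 counts in WT and 171 and 248 in KO, with overlapping groups in counts (log2 FC 0.38 ± 0.27 SE). ZNF529-AS1, antisense to ZNF529 with 1711 shared exon bases, had 25 and 22 counts in WT and 86 and 128 in KO (log2 FC 2.11 ± 0.35 SE, edgeR adjusted p = 0.00500; 0.0594 without KO library S2). ZNF529 rose from 336 and 240 to 838 and 865 counts (log2 FC 1.51 ± 0.18 SE). A1BG-AS1 had 60 and 33 counts in WT and 153 and 124 in KO (log2 FC 1.53 ± 0.36 SE, edgeR adjusted p = 0.0197; 0.156 without KO library S1 and 0.0597 without S2). ZNF497, on the strand opposite to A1BG-AS1 with 1099 shared exon bases, went the other way, from 19 and 36 counts to 1 and 2 (log2 FC -4.17 ± 0.81 SE, edgeR adjusted p = 0.00915).

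LINC01224 was the member that fell. It had 528 and 492 counts in NPC WT and 165 and 235 in KO, or 25.1 ± 0.134 against 9.37 ± 1.72 CPM (log2 FC -1.42 ± 0.20 SE, edgeR adjusted p = 0.00227; 0.143 with all 10 libraries in 1 fit). Its nearest zinc finger gene start is that of ZNF91, 20604 bp away, which had 635 and 570 counts in WT and 642 and 660 in KO (log2 FC 0.05 ± 0.14 SE). CENPBD2P fell from 1003 and 926 counts to 516 and 626, at an adjusted p of 0.00444 (edgeR) but less than 2-fold (log2 FC -0.82 ± 0.13 SE). ZNF790-AS1, up-regulated in HEK293T, had 40 and 9 counts in NPC WT and 47 and 37 in KO, whereas ZNF790 rose there, from 59 and 101 to 233 and 329 counts (log2 FC 1.73 ± 0.34 SE, edgeR adjusted p = 0.00935). Without WT library S3, ZNF790-AS1 was called too (edgeR adjusted p = 0.00897). Among the head-to-head pairs in NPCs, the zinc finger gene was called in 4, ZNF497 being lower and ZNF566, ZNF850 and ZFP28 higher in KO, and the member was called in 1 of these 4 and in 1 of the other 8. Of the genes listed for NPCs only, ENSG00000267142, a processed pseudogene of 19q13.12 (chr19:36912438-36913436, hg19), had 0 and 0 counts in WT and 40 and 81 in KO, at least 19-fold higher (edgeR adjusted p = 0.00220). It was the only call among the 6 of those 8 genes that passed the filter, and 0 of 12 tested genes listed for HEK293T only were called.

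**Figure D4:**
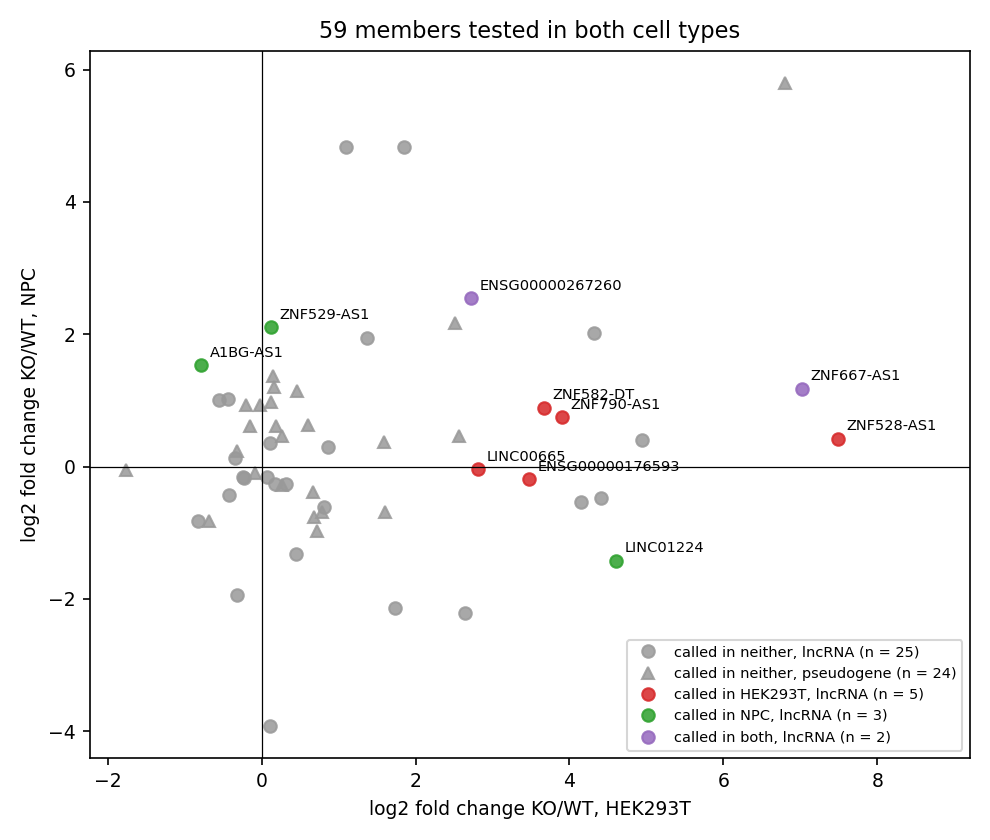
log2 FC between KO and WT in NPCs against that in HEK293T for the 59 members tested in both, with lncRNA members as circles and pseudogenes as triangles, coloured by where they were called. The 2 members called in both, ENSG00000267260 and ZNF667-AS1, lie in the upper right, and LINC01224 lies at 4.61 in HEK293T and -1.42 in NPCs.

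The KO effect itself differed between the cell types for 14 of 70 members tested in a fit of all 10 libraries with an interaction term (edgeR, adjusted p below 0.05). It was higher in HEK293T for 13 (7.34% of all 19255 genes tested were called in this direction) and higher in NPCs for 1 (7.74% of all genes). For ZNF667-AS1 the log2 FC in NPCs minus that in HEK293T was -5.81 ± 0.69 SE (edgeR adjusted p = 0.000202), for LINC00665 -2.84 ± 0.46 SE (0.00174) and for ENSG00000176593 -3.65 ± 0.60 SE (0.00173). ENSG00000267260, called in both, differed by -0.15 ± 0.52 SE (edgeR adjusted p = 0.914). Of the 7 members called in HEK293T, 6 had a higher mean in NPC WT than in HEK293T WT, although levels of the 2 cell types were scaled separately. Over all members the WT median was 0.648 CPM in NPCs and 0.158 CPM in HEK293T, and the 7 were picked by their HEK293T values. LINC00665 was at 11.3 ± 0.587 CPM in NPC WT and 10.9 ± 3.35 CPM in NPC KO, against 3.92 ± 1.75 CPM in HEK293T WT and 27.6 ± 1.81 CPM in HEK293T KO. ZNF528-AS1 was at 1.84 ± 0.142 CPM in NPC WT, above the 0.794 ± 0.445 CPM of HEK293T KO, and ENSG00000176593 at 2.93 ± 0.673 CPM, against 4.08 ± 1.01 CPM in HEK293T KO. In 5 of the 7, HEK293T KO lay above the NPC WT mean.

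Beside the 71 members stand the coding zinc finger genes of the same windows. Of these, 39 of 151 tested (25.8%) were called up and 0 down in HEK293T, with a median log2 FC of 0.71, and 21 and 3 of 161 were called up and down in NPCs, with a median of 0.25. Of the other coding genes of the windows, 1 of 37 was called up in HEK293T (median -0.12), and in NPCs 7 of 45 (15.6%) were called up and 2 (4.44%) down (median -0.07), against 13% up and 1.86% down for the coding zinc finger genes. Outside the windows, 0 of 104 noncoding genes of chromosome 19 were called in HEK293T (6 higher and 1 lower at an unadjusted p below 0.05, 2 called by DESeq2 and 0 by voom; median -0.06), and 4 of 3406 noncoding genes of other chromosomes were called up (median 0.09). The chromosome 19 list was set by the windows alone, so it may hold genes of other zinc finger clusters there. Restricted to lncRNA genes of other chromosomes, 2 of 1776 were called up in HEK293T, with a median of 0.24, and in NPCs 53 were called up and 163 down of 2132, with a median of -0.59. The lncRNA members had 7 of 35 called in HEK293T, and 4 up and 1 down of 43 in NPCs, with medians of 0.87 and 0.13. With genes that lack counts in 1 group at their bound, the HEK293T median was 0.44 for the lncRNA members and 0.23 for lncRNA genes of other chromosomes, and the NPC medians were 0.13 and -0.49. These lists were set beside each other as counts, and the differences between them were not tested.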

How the data were processed

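RNA-seq was measured in 10 libraries. The authors mapped reads to hg19 with HISAT2 and deposited featureCounts counts per gene without normalization, in 1 table per cell type; versions, and whether counting used strand, are not given in the sources used here. Members were taken through the GENCODE release 44 annotation lifted to hg19, which may differ from the gene models counted. The members and lists were chosen with earlier results of these data known. Named were ZNF274, called members, the 5 highest members in WT of each cell type, at most 10 members by interaction p, and their zinc finger neighbours; others were picked after their values were seen.

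Each cell type was fitted by itself in R 4.3.3 with edgeR 4.0.16 (TMM, quasi-likelihood test) over genes with at least 1 count per library on average, and called at an adjusted p below 0.05 and a fold above 2. Alternatives used voom (limma 3.58.1), the study's own method, DESeq2 1.42.0, other filters and scalings, and each library left out. Intervals and floors cover counting error only. Fits were tested on simulated data. Replicates differed by more than sampling noise.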

Additional observations from a re-analysis of the deposited data

Results flagged for a closer look

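The members listed here had a KO effect that differed between the cell types in the interaction test of edgeR (adjusted p below 0.05), given as the log2 FC in NPCs minus that in HEK293T. Among head-to-head members the difference was -5.81 for ZNF667-AS1, -6.87 for ZNF528-AS1, -4.84 for ZNF793-AS1, -2.76 for ZNF582-DT and -4.83 for ZNF470-DT. Among the other members that overlap a zinc finger gene it was -3.65 for ENSG00000176593, -4.65 for ENSG00000267383, -3.13 for ZNF790-AS1, -2.28 for ENSG00000213976 and -4.36 for ENSG00000267481. Among intergenic members it was -2.84 for LINC00665, -6.00 for LINC01224 and -3.86 for LINC00663. It was above 0 for A1BG-AS1 alone, at 2.33, a member that is low in HEK293T KO libraries S18 and S19 and near WT in S20. ZNF528-AS1 and ENSG00000267481 had 0 counts in all HEK293T WT libraries and have fitted values that depend on the prior count. LINC00663 had 2, 1 and 4 counts in HEK293T WT and 4, 11 and 8 in KO, against 20 and 15 in NPC WT and 6 and 2 in NPC KO. Neural progenitor, mesenchymal and pluripotent markers differ between NPC WT and KO, and their part in these differences was not tested.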

How the results depend on the processing

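Members up-regulated in HEK293T numbered 7, but 11 with DESeq2, 3 with S20 as the only KO library, 3 without members that overlap a coding gene, and 4 to 7 with 1 library left out (4 without WT library S16). The median log2 FC over the 59 tested members, 0.45, was 0.17 with filterByExpr, 0.64 without a filter, 0.29 with all 10 libraries in 1 fit, 0.60 with genes of either table, 0.75 without members beyond ZNF274, 0.95 without overlapping members, 0.87 for lncRNA members and 0.42 to 0.57 with 1 library left out. The settings with S20 alone and without members beyond ZNF274 were chosen after seeing the data. In NPCs, up-regulated members numbered 4, but 1 without overlapping members and 1 to 8 with 1 library left out (1 without KO library S2, 8 without WT library S3). Down-regulated members numbered 1, but 0 in the fit of all 10 libraries, 2 with windows widened by 0.5 Mb, 2 without a fold threshold and 1 to 2 with 1 library left out. The NPC median of 0.29 was 0.13 without pseudogenes and 0.077 to 0.29 with 1 library left out (0.077 without KO library S2). Members with a higher KO effect in HEK293T numbered 13, and 7 to 12 with 1 library left out (7 without S2); those higher in NPCs numbered 1, 2 with DESeq2 and 0 to 2 with 1 library left out. The cause of these changes was not tested, and where 1 library of a group remained it was assumed to vary like the others. Direction was kept for each called member, in the cell type where it was called, under the alternatives run. No paired analysis was possible because the labels share no replicate numbers between groups. Members with a few counts per library are limited by depth.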
